A study of Mus musculus with 9 samples.

Results

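Transcripts of Schwann cells and peripheral nerve myelin were followed through 9 genes, Prx, Pmp22, Pmp2, Ncmap, Egr2, Dhh, Erbb3, Fbln2 and Scn7a, chosen by gene name from the 34745 genes of the expression table. All 9 genes passed the count filter and were tested among 16494 genes. The study took RNA from mouse spinal cord around a complete transection at thoracic level T9. Day 0 was the baseline group, titled Y-N, and the sources used here do not explain the N further. Titles of all groups begin with Y, a letter not interpreted here. The day 3 and day 21 groups had complete transection and were taken 3 and 21 days later, and no sham-operated group was used here. Each group had 3 libraries, made from poly-A selected RNA. The sources used here do not give the strain, the age, the length of cord taken or whether nerve roots were removed. They also do not state that each library is a separate animal, and every p-value therefore measures only how these samples vary, which may be technical.

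Schwann cells wrap axons of peripheral nerve and of the nerve roots, while oligodendrocytes make the myelin of the cord itself. A myelinating Schwann cell expresses the transcription factor Egr2 and, under it, proteins of peripheral myelin. After nerve injury Schwann cells are known to give up myelin gene expression and to take on a repair state led by the transcription factor Jun, with growth factors and the receptor Ngfr.

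Total counts per library ran from 14299679 to 24022923, the highest in day 0 replicate 1. That library had 6.93% mitochondrial counts, against 9.02% and 9.05% in day 0 replicates 2 and 3. Its voom sample weight was 0.354, against 1.75 and 2.03 in those replicates. Day 21 replicate 2 stood apart, with log2 CPM correlations of 0.943 and 0.935 to the other day 21 libraries, against 0.985 to 0.989 for all other pairs within a group. Counts of the 9 genes and of the repair list are given with and without it, as are some counts of other lists. The remaining list counts are given with all libraries only, and leaving it out moved some of them too. Without it, 61.2%, 47.5% and 49.3% of 16739 genes tested were called in either direction at day 3 against day 0, day 21 against day 0 and day 21 against day 3. In bulk tissue, fewer cells of a type and less RNA per cell cannot be told apart, and this holds for every gene below.

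RefSeq promoter windows on build GRCm38.p6 matched 7 of the 9 genes, with 15 windows in all, and none matched Pmp2 and Erbb3. The windows below are the 250 bases before an annotated start, written 5′ to 3′ on the strand of the gene, with motif matches in capitals. Windows of 5 genes are shown, all of which rose at day 3. Ncmap and Fbln2 rose too and have windows that are not shown. The windows shown for Egr2 and Scn7a hold a match to the core letters of the EGR zinc finger family, to which Egr2 belongs. The other windows of Egr2 hold none. For Pmp22 the most upstream of its windows is shown.
Egr2, chr10:67535249-67535498, plus strand: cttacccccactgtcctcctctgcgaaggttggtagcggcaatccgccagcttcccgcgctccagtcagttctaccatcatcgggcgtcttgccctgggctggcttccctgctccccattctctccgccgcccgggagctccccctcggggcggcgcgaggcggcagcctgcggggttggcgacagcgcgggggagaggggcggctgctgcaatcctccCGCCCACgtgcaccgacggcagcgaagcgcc
Scn7a, chr2:66784911-66785160, minus strand: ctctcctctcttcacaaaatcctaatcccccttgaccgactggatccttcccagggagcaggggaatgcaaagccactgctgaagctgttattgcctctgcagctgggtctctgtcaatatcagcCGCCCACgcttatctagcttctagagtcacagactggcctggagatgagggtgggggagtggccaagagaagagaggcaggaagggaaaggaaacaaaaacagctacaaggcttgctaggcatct
Prx, chr7:27499074-27499323, plus strand: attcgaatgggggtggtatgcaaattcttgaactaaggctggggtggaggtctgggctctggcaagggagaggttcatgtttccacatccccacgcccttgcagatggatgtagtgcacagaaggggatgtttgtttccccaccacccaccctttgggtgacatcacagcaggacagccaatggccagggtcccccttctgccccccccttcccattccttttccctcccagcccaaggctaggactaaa
Pmp22, chr11:63128732-63128981, plus strand: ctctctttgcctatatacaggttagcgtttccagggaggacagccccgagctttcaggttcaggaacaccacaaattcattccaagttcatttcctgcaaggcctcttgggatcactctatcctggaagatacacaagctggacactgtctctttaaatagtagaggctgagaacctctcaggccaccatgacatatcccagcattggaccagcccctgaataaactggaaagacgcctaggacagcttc
Dhh, chr15:98898541-98898790, minus strand: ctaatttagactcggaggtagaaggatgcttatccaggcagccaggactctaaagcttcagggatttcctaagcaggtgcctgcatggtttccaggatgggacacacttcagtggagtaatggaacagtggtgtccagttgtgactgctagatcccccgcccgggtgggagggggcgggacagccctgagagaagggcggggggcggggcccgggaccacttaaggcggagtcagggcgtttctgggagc
The EGR letters GTGGGCG, searched on both strands, were found in 2 of the 15 windows and in 7.02% of all 32851 windows of the same length. In both genes the match lies on the opposite strand and so reads CGCCCAC. The SOX letters ACAAAG were found in 0 of the 15 windows and in 16.5% of all windows. The TATA letters TATAAA were found in 0 of the 15 and in 12.4% of all. The 3 motifs share no overlap with each other here, and a match is a description of the letters, not a binding site.

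At day 3 against day 0 all 9 genes were higher, where 24.8% of all genes tested were called higher, 19.5% lower and 44.3% in either direction by edgeR's quasi-likelihood test at an adjusted p under 0.05. The median log2 fold change of the 9 was 2.65, beside 0.01 over all genes tested. Against day 0, 8 of the 9 were still higher at day 21, where 17.9% of all genes were called higher, 11.3% lower and 29.2% in either direction, with a median of 0.98 beside 0.02. Compared with day 3, all 9 were lower at day 21, where 16.1% of all genes were called lower, 11.7% higher and 27.8% in either direction, with a median of -1.03 beside 0.02. The FPKM of the libraries did not overlap between day 3 and day 0 for 9 of 9 genes, where 37.5% of all genes were higher without overlap. They did not overlap between day 21 and day 0 for 8 of 9, where 27.2% of all genes were higher without overlap, and between day 21 and day 3 for 9 of 9, where 21.6% were lower without overlap. Without day 21 replicate 2 the counts were the same, 9, 8 and 9. The 3 comparisons share libraries, so they do not support each other.

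**Figure D1:**
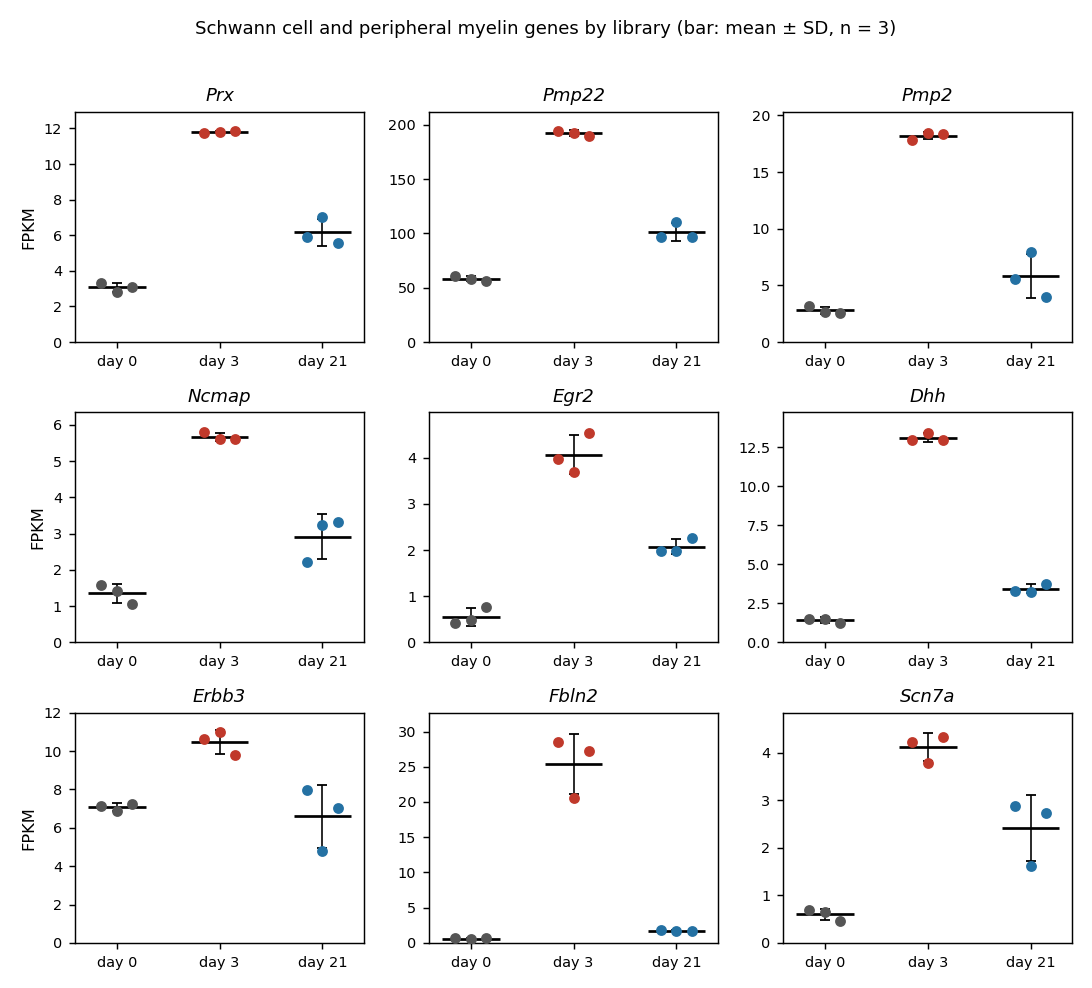
Level of each gene in FPKM (fragments scaled by transcript length and library total, vertical axis, from 0) in each library at day 0, day 3 and day 21; points are libraries and bars the mean ± SD of 3. Day 3 lies above both other groups in all 9 panels, and day 21 lies above day 0 in all but Erbb3.

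The structural genes of peripheral myelin come first. Prx encodes periaxin, a scaffold protein of the Schwann cell membrane around compact myelin. It lies on GRCm38 chromosome 7 at 27499324 to 27520214 on the plus strand. It stood at 3.31, 2.80 and 3.12 FPKM at day 0, 11.7, 11.8 and 11.8 FPKM at day 3, and 5.88, 7.04 and 5.57 FPKM at day 21. No group overlapped another, and the day 3 libraries were nearly alike. The log2 fold change of Prx was 1.89 ± 0.11 (SE) at day 3 against day 0 (edgeR adjusted p 1.60e-06) and 0.88 ± 0.11 at day 21 against day 0 (edgeR adjusted p 0.000412). Between day 21 and day 3 it was -1.01 ± 0.11 (edgeR adjusted p 0.000222). The Prx values rest on 3286 summed counts at day 0, 10634 at day 3 and 5054 at day 21.

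Pmp22 encodes peripheral myelin protein 22, a membrane protein of compact myelin that other cell types also make. It lies on chromosome 11 at 63128982 to 63159547. Its levels were 61.3, 58.2 and 56.0 FPKM at day 0, 194, 193 and 189 FPKM at day 3, and 96.9, 111 and 96.6 FPKM at day 21. It was the most abundant of the 9 genes per length at every day, and its groups did not overlap. Its log2 fold changes were 1.66 ± 0.09 at day 3 against day 0, 0.67 ± 0.08 at day 21 against day 0, and -1.0 ± 0.08 at day 21 against day 3 (edgeR adjusted p 7.93e-07, 0.000467 and 6.69e-05). These were the smallest changes from day 0 of the 6 myelinating Schwann cell genes.

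Pmp2 encodes a fatty acid binding protein of myelin and lies on chromosome 3 at 10179851 to 10183929 on the minus strand. It stood at 3.16, 2.66 and 2.54 FPKM at day 0, 17.9, 18.4 and 18.4 FPKM at day 3, and 5.59, 7.91 and 3.97 FPKM at day 21. The day 21 libraries were all above day 0 but spread by a ratio of 1.99 between the highest, replicate 2, and the lowest. Its log2 fold change was 2.65 ± 0.22 at day 3 against day 0 (edgeR adjusted p 1.49e-05) and 0.93 ± 0.22 at day 21 against day 0 (edgeR adjusted p 0.0123). The call at day 21 against day 0 was lost when only those 2 groups were fitted and without day 0 replicate 3, with edgeR adjusted p up to 0.0516. Pmp2 is uncertain, because 86.9% of its exon bases overlap Gm37389 on the same strand, to which the table gives 0 or 1 count per library.

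Ncmap encodes noncompact myelin associated protein and lies on chromosome 4 at 135369576 to 135398227. It stood at 1.58, 1.41 and 1.07 FPKM at day 0, 5.80, 5.60 and 5.62 FPKM at day 3, and 2.20, 3.23 and 3.32 FPKM at day 21. The groups were apart, and the day 21 libraries had the widest range. Its log2 fold changes were 2.02 ± 0.19 at day 3 against day 0, 0.98 ± 0.18 at day 21 against day 0 and -1.03 ± 0.18 at day 21 against day 3 (edgeR adjusted p 2.77e-05, 0.00410 and 0.00312).

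The regulator and the secreted signal of the myelinating cell moved the same way. Egr2, the zinc finger factor that drives peripheral myelin genes, lies on chromosome 10 at 67535475 to 67542188. It stood at 0.414, 0.479 and 0.774 FPKM at day 0, 3.97, 3.69 and 4.53 FPKM at day 3, and 1.98, 1.98 and 2.26 FPKM at day 21. Day 0 was low in all 3 libraries, and the summed counts were 169 at day 0, 1073 at day 3 and 500 at day 21. The log2 fold change of Egr2 was 2.82 ± 0.24 at day 3 against day 0 (edgeR adjusted p 1.55e-05) and 1.77 ± 0.23 at day 21 against day 0 (edgeR adjusted p 0.000643). It was -1.05 ± 0.22 at day 21 against day 3 (edgeR adjusted p 0.00741). Egr2 is also known in other cells, macrophages among them, and macrophage genes were higher too, as given further on.

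Dhh, desert hedgehog, is a signal that Schwann cells send to the cells of the nerve sheath. It lies on chromosome 15 at 98893031 to 98898540 on the minus strand. It stood at 1.53, 1.53 and 1.23 FPKM at day 0, 13.0, 13.4 and 13.0 FPKM at day 3, and 3.30, 3.26 and 3.76 FPKM at day 21. All 3 groups were apart, with a log2 fold change of 3.14 ± 0.14 at day 3 against day 0, 1.14 ± 0.13 at day 21 against day 0 and -2.0 ± 0.13 at day 21 against day 3 (edgeR adjusted p 3.29e-07, 0.000317 and 1.66e-05). This was the largest change at day 3 among the 6 myelinating genes. Of its exon bases 25.2% overlap Gm49442 or Rhebl1, so Dhh is uncertain to that extent, and Rhebl1 had only 23 to 65 counts per library.

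The other 3 genes are less bound to the myelinating cell. Fbln2, an extracellular fibulin that fibroblasts and other cells also secrete, lies on chromosome 6 at 91212455 to 91272540. It stood at 0.635, 0.526 and 0.628 FPKM at day 0, 28.5, 20.5 and 27.2 FPKM at day 3, and 1.89, 1.74 and 1.63 FPKM at day 21. Its mean at day 3 was 42.6 times that at day 0, the largest ratio of the 9. Its log2 fold change was 5.36 ± 0.17 at day 3 against day 0, 1.43 ± 0.16 at day 21 against day 0 and -3.93 ± 0.16 at day 21 against day 3 (edgeR adjusted p 8.89e-08, 0.000201 and 2.04e-06). By mean FPKM Fbln2 ranked second of the 9 at day 3 and last at day 21.

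Scn7a encodes a sodium channel of the Nav2 type, known in non-myelinating Schwann cells and in sensory neurons. It lies on chromosome 2 at 66673425 to 66784914 on the minus strand. It stood at 0.692, 0.640 and 0.464 FPKM at day 0, 4.23, 3.78 and 4.34 FPKM at day 3, and 2.89, 1.61 and 2.74 FPKM at day 21. The groups did not overlap, with day 21 replicate 2 the lowest of its group. The log2 fold change was 2.73 ± 0.25 at day 3 against day 0 (edgeR adjusted p 2.67e-05) and 1.89 ± 0.25 at day 21 against day 0 (edgeR adjusted p 0.000595). The fall at day 21 against day 3, -0.84 ± 0.23 (edgeR adjusted p 0.0252), was not called without any one of the day 3 libraries or when only those 2 groups were fitted, with edgeR adjusted p up to 0.0805.

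Erbb3, the neuregulin receptor of Schwann cells, which oligodendrocyte lineage cells also express, lies on chromosome 10 at 128567523 to 128589652 and stood apart from the other 8. It had 7.15, 6.88 and 7.25 FPKM at day 0, 10.6, 11.0 and 9.81 FPKM at day 3, and 7.95, 4.77 and 7.06 FPKM at day 21. Day 3 lay above day 0, while day 21 spanned day 0 on both sides. Its log2 fold change was 0.51 ± 0.18 at day 3 against day 0 (edgeR adjusted p 0.0450), a call lost in 9 of 19 alternative settings, with adjusted p up to 0.123. It was -0.22 ± 0.18 at day 21 against day 0 (edgeR adjusted p 0.396), and -0.03 without day 21 replicate 2. Between day 21 and day 3 it was -0.74 ± 0.18 (edgeR adjusted p 0.0160), a call lost in 3 of the 19 settings with adjusted p up to 0.0579.

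**Figure D2:**
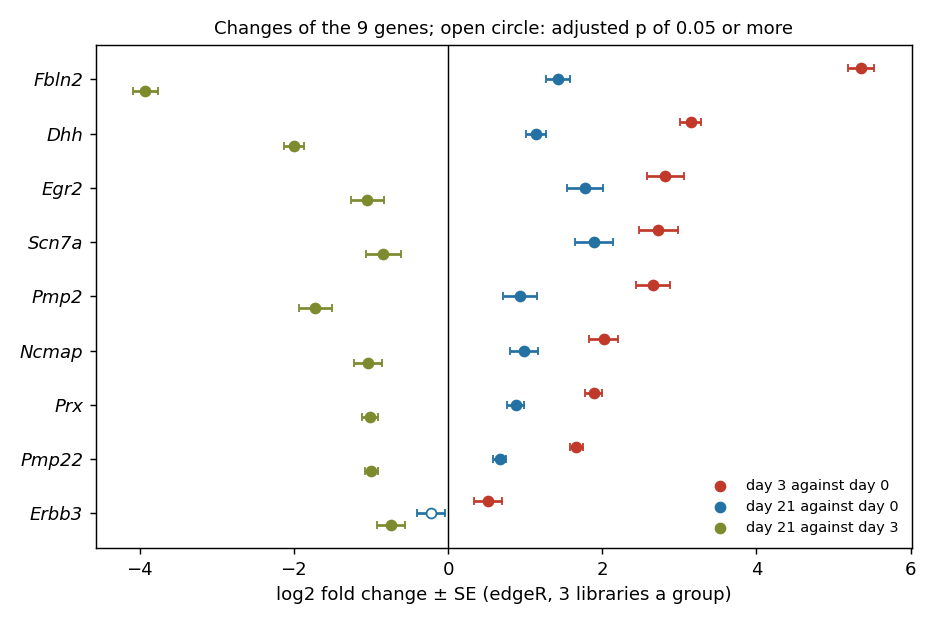
Log2 fold change ± SE (horizontal axis) of the 9 genes (vertical axis) in the 3 comparisons by edgeR, with 3 libraries a group; open circles mark an adjusted p of 0.05 or more. At day 3 against day 0 the changes run from 0.51 for Erbb3 to 5.36 for Fbln2, and the only open circle is Erbb3 at day 21 against day 0.

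The 9 genes did not rise by one common factor. The log2 ratio of each gene to Prx within a library sets the library's depth and scaling aside. Fbln2 over Prx averaged 1.09 ± 0.26 at day 3 and -2.37 ± 0.05 at day 0 (SD, n = 3 each). Dhh over Prx averaged 0.15 ± 0.03 at day 3 and -1.11 ± 0.24 at day 0. For Egr2, Scn7a and Pmp2 over Prx the difference between day 3 and day 0 was 0.97, 0.86 and 0.77, and in these 5 ratios the libraries of the days did not overlap. Erbb3 over Prx was lower by 1.38 log2 units at day 3 than at day 0, and Pmp22 over Prx by 0.23, again with no overlap. Ncmap over Prx differed by 0.14 and overlapped between the days (exact permutation p 0.9, two-sided). With 3 libraries against 3 the exact permutation test cannot go below 0.1, which all the other 7 ratios reached. These 8 ratios form 1 family, and none can pass an adjustment over it.

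By mean FPKM the order at day 0 was Pmp22, Erbb3, Prx, Pmp2, Dhh, Ncmap, Scn7a, Fbln2 and Egr2. The neighbours Prx and Pmp2, Dhh and Ncmap, and the last 3 overlapped. At day 3 the order was Pmp22, Fbln2, Pmp2, Dhh, Prx, Erbb3, Ncmap, Scn7a and Egr2, and only the last pair overlapped. At day 21 it was Pmp22, Erbb3, Prx, Pmp2, Dhh, Ncmap, Scn7a, Egr2 and Fbln2, with overlaps from Erbb3 to Pmp2 and from Dhh to Egr2.

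How much of the day 3 elevation remained at day 21 differed among the genes. Taking the day 3 mean minus the day 0 mean as 100%, the day 21 mean kept 51.5% for Scn7a, 43.1% for Egr2, 36.2% for Ncmap, 35.4% for Prx and 32.1% for Pmp22. The shares were lower for Pmp2, Dhh and Fbln2, at 19.7%, 17.2% and 4.66%. For Erbb3 the share was -14.6%, with 25.4%, -68.3% and -0.997% in the 3 libraries, and 12.2% without day 21 replicate 2. Single day 21 libraries ranged from 28.8% to 65.1% for Scn7a, from 7.69% to 33.2% for Pmp2, and from 4.15% to 5.22% for Fbln2. The share of Pmp2 was 12.9% without day 21 replicate 2. The median over the 9 genes was 32.1%, and 28.6% without day 21 replicate 2. No test was run on these shares.

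Repair-type genes were compared with the myelin genes. Of 20 genes named as repair Schwann cell genes, 14 were higher and 1 lower at day 3 against day 0, where 24.8% of all genes were higher and 19.5% lower, with a median log2 fold change of 1.0. Day 21 against day 0 had 7 higher and 2 lower, where 17.9% of all genes were higher and 11.3% lower, with a median of 0.35. Day 21 against day 3 had 12 lower and 0 higher, where 16.1% of all genes were lower, with a median of -0.73. Without day 21 replicate 2 the counts called in either direction were 16, 12 and 15 of 20, beside the larger shares of all genes given above for that setting. Many of these genes are also expressed by other cells of the injured cord. A narrow list of 10, without Jun and Gfap but with Sox2, which cord glia also express, is used in the ratios below.

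Ngfr, the p75 neurotrophin receptor, made up most of the narrow list's summed level at day 3. It stood at 1.94, 2.25 and 1.68 FPKM at day 0, 63.0, 62.1 and 59.6 FPKM at day 3, and 5.64, 4.43 and 5.50 FPKM at day 21. The day 3 libraries were far above both other groups, and day 21 was above day 0 in all 3. The log2 fold change of Ngfr was 4.92 ± 0.17 at day 3 against day 0, 1.29 ± 0.15 at day 21 against day 0 and -3.64 ± 0.16 at day 21 against day 3 (edgeR adjusted p 9.53e-08, 0.000306 and 2.22e-06). Gdnf, a growth factor of injured nerve, stood at 0.0356, 0.0723 and 0.113 FPKM at day 0, 3.03, 2.81 and 2.90 FPKM at day 3, and 0.326, 0.294 and 0.279 FPKM at day 21. It rose at both later days by edgeR (adjusted p 1.36e-06 at day 3 and 0.00319 at day 21, against day 0), with few counts at day 0.

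Jun, the AP-1 factor that sets the repair state, stood at 19.9, 22.4 and 22.6 FPKM at day 0, 63.4, 61.7 and 62.4 FPKM at day 3, and 37.0, 35.3 and 35.0 FPKM at day 21. Its groups did not overlap, and its log2 fold change was 1.47 ± 0.10 at day 3 and 0.60 ± 0.10 at day 21, both against day 0 (edgeR adjusted p 4.59e-06 and 0.00248). The transcription factor Runx2 reached 0.774 ± 0.018 FPKM at day 3, against 0.0974 ± 0.0144 at day 0 (SD, n = 3 each), with a log2 fold change of 2.94 ± 0.18 (edgeR adjusted p 2.02e-06). The injury-induced factor Atf3 and the cytokine Lif rose by 5.51 ± 0.26 and 3.33 ± 0.31 log2 units at day 3 against day 0 (edgeR adjusted p 5.53e-07 and 2.70e-05). The growth factor Btc rose by 2.28 ± 0.28 (edgeR adjusted p 0.000167), at a day 3 mean of only 0.663 FPKM.

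Shh, sonic hedgehog, took another course from its relative Dhh. It stood at 2.98, 3.03 and 2.75 FPKM at day 0, 13.9, 13.97 and 13.4 FPKM at day 3, and 1.83, 1.91 and 1.77 FPKM at day 21. It was highest at day 3 and lowest at day 21 in all 3 libraries. The log2 fold change of Shh was 2.18 ± 0.11 at day 3 against day 0 (edgeR adjusted p 5.53e-07) and -0.79 ± 0.11 at day 21 against day 0 (edgeR adjusted p 0.000739), whereas Dhh stayed above day 0 at day 21. Shh is uncertain in that 28.3% of its exon bases overlap another gene.

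Genes of the repair list that were not called at day 3 were Artn, Cdh2, Ncam1, Pax3 and Id2, and Fgf5 fell by 1.10 ± 0.28 log2 units (edgeR adjusted p 0.0103). The embryonic factor Pax3 had 0.187, 0.272 and 0.241 FPKM at day 3, against 0.179, 0.280 and 0.244 FPKM at day 0. Artn, a ligand of the GDNF family, had 0.213, 0.370 and 0.214 FPKM at day 3, against 0.194, 0.218 and 0.334 FPKM at day 0. The groups overlapped for both genes.

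The share of the day 3 elevation that remained at day 21 was taken for the repair genes too, over the 14 chosen for being called higher at day 3. These kept a median of 19.4% of their day 3 elevation, against 32.1% for the 9 Schwann cell and peripheral myelin genes, with ranges that overlap widely, and the difference was not tested. Without day 21 replicate 2 the medians lay closer together. That of the 9 genes was then 28.6%, and that of the 14 repair genes lay between Btc at 17.7% and Atf3 at 28.7%. Among narrow repair genes Ngfr kept 5.42%, Gdnf 7.95%, Btc 12.7%, Runx2 26.0% and Sox2 64.5% (46.2% without day 21 replicate 2), while Ucn2 was at 2.72% and Shh at -10.1%. Jun kept 34.6%, close to Prx and Pmp22. Gfap and Gap43, which glia or neurons of the cord also express, kept 77.7% and 125%. The share of Gap43 was 72.1% without day 21 replicate 2.

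**Figure D3:**
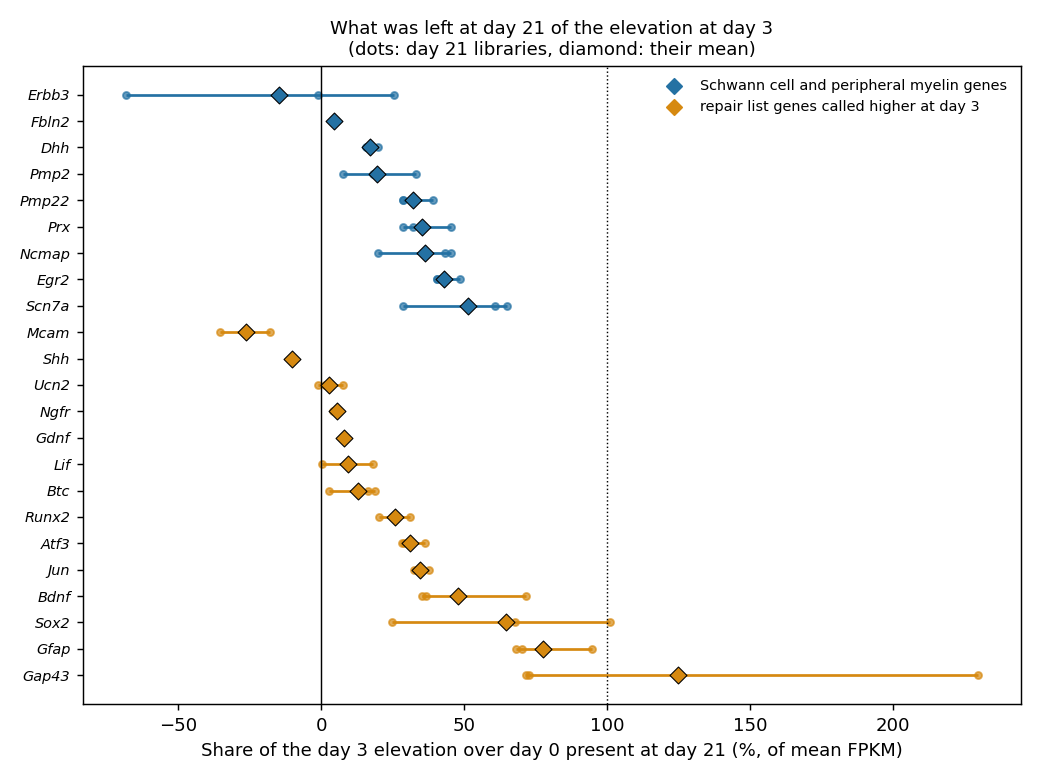
Share of the day 3 elevation over day 0 that was present at day 21, in percent of mean FPKM (horizontal axis), for the 9 genes in blue and the 14 repair genes called higher at day 3 in orange; dots are day 21 libraries, diamonds their mean. Fbln2, Ngfr and Gdnf lie near 0, Scn7a lies at 51.5%, and Gap43, at 125% on average and 72.1% without day 21 replicate 2, has the widest range among its libraries.

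The summed FPKM of the 6 myelinating genes was 64.7 to 71.3 at day 0, 243 to 247 at day 3 and 116 to 134 at day 21. That of the narrow repair list was 19.9 to 22.5, 105 to 110 and 25.5 to 30.3 at the same days. The log2 ratio of the myelinating sum to the narrow repair sum was 1.69 ± 0.03 at day 0, 1.19 ± 0.02 at day 3 and 2.11 ± 0.09 at day 21 (SD, n = 3 each). The libraries of the 3 days did not overlap, but each sum rests largely on 1 or 2 genes. Pmp22 made up 86.4%, 78.4% and 83.2% of the myelinating sum at day 0, day 3 and day 21, and Sox2 71.4%, 20.7% and 69.7% of the narrow repair sum, with Ngfr at 57.3% of that sum at day 3. Without Sox2, a choice made after seeing the data, the ratio was 3.50 ± 0.08, 1.53 ± 0.02 and 3.83 ± 0.21 at the 3 days. Without Pmp22 it was -1.19 ± 0.02, -1.02 ± 0.04 and -0.47 ± 0.12, so day 3 then lay above day 0 rather than below it. Without both it was 0.62 ± 0.13, -0.69 ± 0.05 and 1.25 ± 0.27. Day 21 was highest in all 4 versions, and the order of day 3 and day 0 turned round when Pmp22 alone was left out. Within single genes, Ngfr over Prx averaged 2.38 ± 0.05 at day 3 and -0.66 ± 0.30 at day 0 in log2 units, with no overlap. It averaged -0.25 ± 0.36 at day 21, which overlapped day 0 (exact permutation p 0.2, two-sided).

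Further genes of the myelinating Schwann cell behaved less uniformly. Of 10 such genes 6 were higher and 2 lower at day 3 against day 0, where 24.8% and 19.5% of all genes were, with a median log2 fold change of 1.03. Against day 0, 4 were higher and 2 lower at day 21, where 17.9% and 11.3% of all genes were, with a median of 0.25. Without day 21 replicate 2, 4 were higher and 4 lower at day 21, where 25.1% and 22.4% of all genes were. Gldn, gliomedin of the nodes of Ranvier in peripheral nerve, stood at 12.9 ± 0.654 FPKM at day 3 and 0.947 ± 0.138 FPKM at day 0 (SD, n = 3 each). Its log2 fold change was 3.71 ± 0.23 (edgeR adjusted p 2.19e-06). Cldn19, a tight junction claudin of peripheral myelin, rose by 2.48 ± 0.11, and Drp2, which binds periaxin, by 1.20 ± 0.24 (edgeR adjusted p 3.32e-07 and 0.00314). Mag and Pllp, which oligodendrocytes also express, fell at day 3 against day 0, Mag by 0.48 ± 0.11 log2 units (edgeR adjusted p 0.00544).

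Genes of the Schwann cell lineage and of non-myelinating cells split as well. At day 3 against day 0, 6 of 10 were higher and 1 lower, where 24.8% of all genes were higher and 19.5% lower. At day 21 against day 0, 4 were higher and 1 lower, where 17.9% of all genes were higher and 11.3% lower. The median log2 fold changes were 0.84 and 0.47. Without day 21 replicate 2, 7 were higher and 3 lower at day 3, where 32.0% and 29.2% of all genes were. Gfra3, the artemin receptor, Foxd3, a neural crest factor, and Cdh19, a cadherin of the glial lineage, rose by 4.24 ± 0.37, 2.86 ± 0.29 and 2.25 ± 0.23 log2 units at day 3 (edgeR adjusted p 2.06e-05, 5.19e-05 and 5.48e-05). At day 21 Cdh19 stood at 5.04 ± 1.59 FPKM, against 1.30 ± 0.0939 at day 0, and was still called higher (edgeR adjusted p 0.000471). Foxd3 was not called at day 21 (edgeR adjusted p 0.137). Sox10, which both Schwann cells and oligodendrocytes need, was not called at day 3, at 87.7 ± 3.38 FPKM and 67.8 ± 7.06 FPKM at day 0 (edgeR adjusted p 0.0538).

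Around Erbb3, 4 of 10 neuregulin pathway genes were higher and 3 lower at day 3 against day 0, where 44.3% of all genes were called, with a median log2 fold change of -0.16. At day 21, 2 were higher and 1 lower than at day 0, near the 29.2% of all genes called, and 4 and 2 without day 21 replicate 2, near its 47.5%. Erbb2, the kinase partner that Erbb3 needs to signal, stood at 4.17, 4.45 and 4.07 FPKM at day 3, against 0.684, 0.620 and 0.723 FPKM at day 0. The groups were far apart, with a log2 fold change of 2.59 ± 0.13 (edgeR adjusted p 7.98e-07), and Erbb2 was still higher at day 21 against day 0 by 1.20 ± 0.13 (edgeR adjusted p 0.000203). The ligand genes Nrg1 and Nrg3, which neurons express, fell at day 3 against day 0 by 1.20 ± 0.32 and 1.04 ± 0.22 log2 units (edgeR adjusted p 0.0146 and 0.00421). Neuron markers moved with them, with 8 of 8 lower at day 3, where 19.5% of all genes were, and their part in this was not tested.

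Around Dhh, 6 of 12 tested hedgehog pathway genes were higher and 0 lower at day 3 against day 0, with a median log2 fold change of 0.53. Of all genes 24.8% were higher and 19.5% lower. Counted in either direction, the 6 of 12 lay near the 44.3% of all genes called. Without day 21 replicate 2, 9 of 13 were higher and 2 lower, where 32.0% and 29.2% of all genes were. The target and transcription factor Gli1 rose by 1.16 ± 0.12 (edgeR adjusted p 4.70e-05) and the signal transducer Smo by 1.02 ± 0.11 (edgeR adjusted p 8.15e-05). The receptor Ptch1 was not called, with 6.98, 6.97 and 6.41 FPKM at day 3, against 8.44, 9.34 and 8.92 FPKM at day 0. By day 21, 3 were higher than at day 0, Gli1 among them, and 1, Shh, was lower, near the 29.2% of all genes called. Without day 21 replicate 2, 5 were higher and 2 lower, where 25.1% and 22.4% of all genes were.

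Of 12 partners and regulators of Egr2, 6 were higher and 0 lower at day 3 against day 0, with a median log2 fold change of 0.79. Of all genes 24.8% were higher, 19.5% lower and 44.3% called in either direction. At day 21 against day 0, 5 of the 12 were higher, where 17.9% of all genes were. Without day 21 replicate 2, 10 were higher and 1 lower at day 3, where 32.0% and 29.2% of all genes were. Nfatc4, Wwtr1, the adhesion receptor Adgrg6 and Yap1, all known to act in Schwann cell myelination, rose by 2.15 ± 0.16, 1.74 ± 0.16, 1.70 ± 0.23 and 1.34 ± 0.13 log2 units at day 3 (edgeR adjusted p 8.17e-06, 3.09e-05, 0.000316 and 3.59e-05). All of these 4 were also higher at day 21 against day 0 and lower at day 21 than at day 3. Genes of the basal lamina and its receptors rose more widely. At day 3 against day 0, 11 of 12 were higher, where 24.8% of all genes were, with a median of 1.84. Col4a1, a chain of type IV collagen, and the laminin chain Lamb1 rose by 3.59 ± 0.14 and 3.04 ± 0.13 (edgeR adjusted p 1.65e-07 and 2.67e-07), and vessels also make both. By day 21, 6 of the 12 were higher than at day 0, where 17.9% of all genes were. Without day 21 replicate 2, 10 were higher, where 25.1% of all genes were.

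Of 12 central myelin genes, 7 were lower and 1, Cldn11, was higher at day 3 against day 0, where 19.5% of all genes were lower and 24.8% higher, with a median log2 fold change of -0.42. Their summed FPKM was 1788 to 1821 at day 3, against 1812 to 1947 at day 0, and these ranges overlapped. Opalin fell by 1.14 ± 0.19 and Ugt8a by 0.87 ± 0.15 log2 units (edgeR adjusted p 0.00106 and 0.00118). At day 21, 1 was higher and 2 were lower than at day 0, where 17.9% and 11.3% of all genes were. Without day 21 replicate 2, 2 were higher and 8 lower, where 25.1% and 22.4% of all genes were. The log2 ratio of the 6 peripheral myelin genes to the central myelin list was -4.80 ± 0.05 at day 0, -2.88 ± 0.03 at day 3 and -3.84 ± 0.06 at day 21 (SD, n = 3 each), with no overlap between days. This sum too is mostly Pmp22, and without it the ratio was -7.68 ± 0.07, -5.09 ± 0.001 and -6.42 ± 0.12 at the 3 days, again with no overlap.

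**Figure D4:**
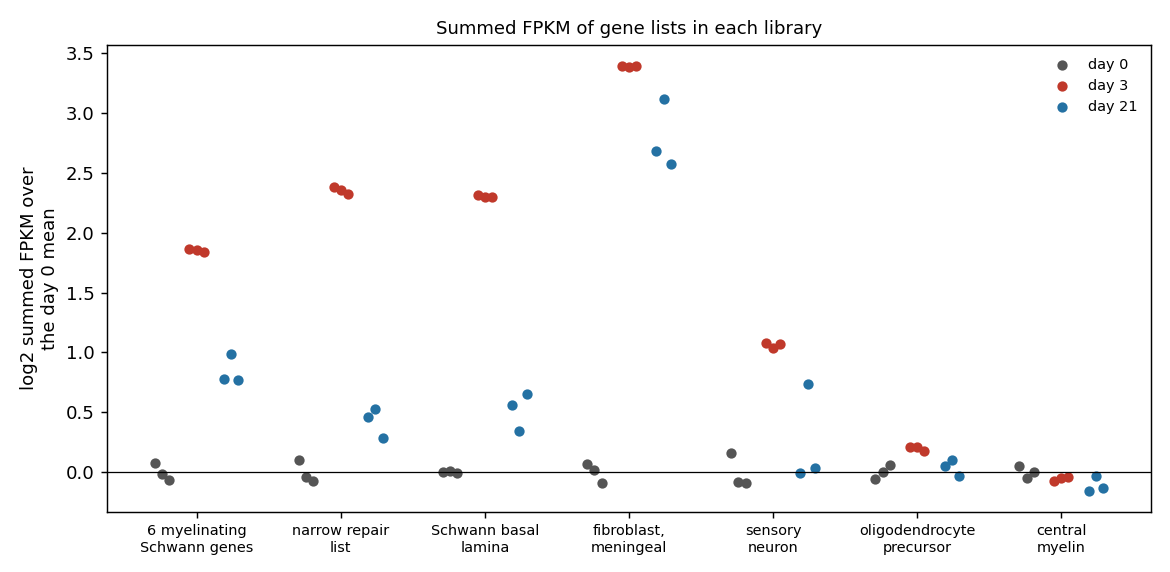
Log2 of the summed FPKM of each gene list over its day 0 mean (vertical axis) in each library, by list (horizontal axis), coloured by day. The 6 myelinating genes (mostly Pmp22) and the narrow repair list (mostly Sox2 at day 0 and day 21) lie highest at day 3. So do the basal lamina, fibroblast, sensory neuron and oligodendrocyte precursor lists, with the largest rise over day 0 in the fibroblast list. The central myelin list stays near 0, and the sensory neuron list has 1 day 21 library apart, replicate 2.

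Markers of other cells moved with the 9 genes, and their part in the results was not tested. Of 13 peripheral sensory neuron genes 10 were higher and 0 lower at day 3 against day 0, where 24.8% of all genes were higher and 19.5% lower. Their summed FPKM was 126 to 130 at day 3, against 58.0 to 68.9 at day 0. It was 61.5, 103 and 63.1 at day 21, the highest in replicate 2. Mrgprd had 0 counts in the 3 day 0 libraries, and the sodium channel Scn10a, a nociceptor gene, had 9.11, 8.77 and 9.37 FPKM at day 3 and 1.42, 1.20 and 1.73 FPKM at day 21, against 0.00649, 0.00989 and 0 FPKM at day 0. Avil, a defining gene of peripheral sensory neurons, had 13.7, 13.9 and 14.2 FPKM at day 3 and 2.17, 3.25 and 2.44 FPKM at day 21, against 0.0403, 0.0461 and 0.0825 FPKM at day 0. At day 0 the sensory neuron sum thus came almost wholly from genes of the list other than Avil, Scn10a and Mrgprd. Prph, Calca and Th of this list were not called at day 3. The log2 ratio of the 9 genes' sum to the sensory neuron sum was 1.15 ± 0.01 at day 3 and 0.30 ± 0.08 at day 0. Prx over Avil was -0.24 ± 0.02 at day 3 and 5.84 ± 0.56 at day 0, so these ratios moved in opposite directions.

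For the counts that follow, 24.8% of all genes were higher and 19.5% lower at day 3 against day 0. At day 21 against day 0 the shares were 17.9% and 11.3%. Fibroblast and meningeal genes were higher in 12 of 12 at day 3 and 11 of 12 at day 21 against day 0. They summed to 607 to 609 FPKM at day 3 and 346 to 504 FPKM at day 21, against 54.5 to 60.5 FPKM at day 0. Macrophage genes were higher in 8 of 8 at both days, with sums of 652 to 661 FPKM at day 3 and 463 to 687 FPKM at day 21, against 25.9 to 28.2 FPKM at day 0. Endothelial genes were higher in 6 of 8 at day 3, at 172 to 181 FPKM, against 57.3 to 69.3 FPKM at day 0. At day 21 they were higher in 0 of 8, or 2 of 8 without day 21 replicate 2, where 25.1% of all genes were. Oligodendrocyte precursor genes, markers of cells that also express Erbb3, were higher in 4 of 7 at day 3, at 177 to 182 FPKM, against 151 to 163 FPKM at day 0. At day 21 they were higher in 0 of 7. Without day 21 replicate 2, 5 were higher and 1 lower at day 21, where 25.1% and 22.4% of all genes were. In that setting 2 were lower at day 3, where 29.2% of all genes were. Skeletal muscle genes were higher in 8 of 8 at day 21, at 112 to 195 FPKM, against 14.9 to 19.0 FPKM at day 0. At day 3 they were higher in 0 of 8 and lower in 3, at 7.78 to 8.06 FPKM. Without day 21 replicate 2, 5 were lower at day 3, where 29.2% of all genes were. In day 21 replicate 2 the sensory neuron, fibroblast, macrophage and muscle sums were the highest of their group, as were Prx, Pmp22 and Pmp2. The neuron, central myelin, oligodendrocyte precursor and endothelial sums were highest there too. Erbb3, Scn7a and Dhh were the lowest of their group, as were the astrocyte and basal lamina sums. Single sensory neuron genes differed, with Avil highest and Scn10a lowest in that library.

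The 6 genes whose log2 CPM over the 9 libraries was most like the mean profile of the 9 genes, among 6878 genes averaging 5 FPKM or more, were Col28a1, Tnc, Lox, Stab1, Ehd2 and Nid2. Their Pearson correlations were 0.9991, 0.9985, 0.9981, 0.9981, 0.9979 and 0.9978. All points share the same 9 libraries in 3 groups, and 55 genes reached 0.99, so this describes a high day 3 and an intermediate day 21 and nothing narrower. Col28a1, a collagen known from peripheral nerve, averaged 0.212 ± 0.0380 FPKM at day 0, 19.1 ± 1.17 FPKM at day 3 and 1.36 ± 0.348 FPKM at day 21 (SD, n = 3 each). Among the 9 genes themselves the correlation with that mean profile was highest for Dhh, at 0.997, and lowest for Erbb3, at 0.653.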

How the data were processed

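The deposited table holds a count and an FPKM column per library for 34745 genes. The file headers name these columns only as count and FPKM. Counts were taken as reads per gene, not normalized, and FPKM values are those the authors deposited. HISAT2 and StringTie are named, with no version, in the submitters' processing notes, as is the build GRCh38, while the deposited gene loci are on mouse GRCm38: GENCODE M21 shares 34267 of the gene IDs, and 27686 of these have identical coordinates there. Settings, annotation and use of strand: not given in the sources used here. Counts were compared with edgeR 4.0.16 in R 4.3.3 (TMM scaling, default filter, robust quasi-likelihood fit of all 9 libraries, 6 residual degrees of freedom, biological coefficient of variation 0.205). Benjamini-Hochberg adjustment ran over all 16494 genes tested, two-sided, with calls at 0.05. The SE is the fold change divided by the root of the F statistic. Levels and ratios use FPKM. The script was tested on simulated counts.

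The 9 genes and all lists were chosen with earlier results of these data known. All 9 genes and the repair list could be named, and of other lists up to 4 called genes with the largest changes at 1 FPKM or more, plus cell type markers. The title N was taken as day 0. Exon overlaps come from GENCODE M21. Alternatives were DESeq2 1.42.0, limma 3.58.1 on log2 FPKM with pseudocounts of 1 and 0.1, voom with sample weights, median-of-ratios and upper quartile scaling, no count filter or 1 FPKM in 3 libraries, a fit of 2 groups, a replicate block, and leaving out each library. Ratios of sums without Pmp22 or Sox2, and list counts and shares without day 21 replicate 2, were added after seeing the data.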

Additional observations from a re-analysis of the deposited data

Results flagged for a closer look

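Shh went in opposite directions at the 2 later days: it was higher at day 3 than at day 0 and lower at day 21 than at day 0, in all 3 libraries of each day. The direct comparison of day 21 with day 3 gave a log2 fold change of -2.97 ± 0.11 (edgeR adjusted p 1.12e-06). Both changes from day 0 share the day 0 libraries, and 28.3% of the exon bases of Shh overlap another gene.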

How the results depend on the processing

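Of 513 values of the 9 genes under 19 alternatives in 3 comparisons, 495 kept direction and call, 18 kept the direction and lost the call, and 0 turned round. The lost calls were those of Erbb3, Scn7a and Pmp2 given with these genes above. Leaving out each library in turn, the called genes of the 9 were 8 to 9 at day 3 against day 0, 7 to 8 at day 21 against day 0 and 7 to 9 at day 21 against day 3. Repair genes called were 12 to 16, 7 to 12 and 11 to 15, and all genes called 5879 to 10245, 3273 to 7955 and 2893 to 8246, against 7307, 4813 and 4585 with all libraries. The highest of these for all genes came without day 21 replicate 2, and at day 21 against day 3 the lowest without a day 3 library (2893, 2938 and 2969).

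With voom and sample weights, 15 repair genes were called at day 21 against day 0 in place of 9, and all genes called were 8323 there and 9294 at day 21 against day 3. Fitting only day 21 and day 0 called 2909 genes. Upper quartile scaling moved the log2 fold changes of all genes by a median of 0.08 at day 21 against day 0. At day 21 against day 3 the median move was 0.10. The split of calls moved to 3333 higher and 1425 lower at day 21 against day 0, in place of 2949 and 1864. It moved to 2622 and 2209 at day 21 against day 3, in place of 1928 and 2657. Limma on log2(FPKM + 1) gave splits of 3320 and 1218 and of 2383 and 2515 there. Outside the 9 genes, Gap43 at day 21 against day 3 turned to -0.16 with voom and to -0.17 without day 21 replicate 2, and Flt1, an endothelial marker, at day 21 against day 0 to 0.25 without that library. Leaving out each library gave -0.17 to 0.11 for Gap43 and -0.20 to 0.25 for Flt1. The cause was not tested. The log2 ratio of the myelinating to the narrow repair sum, with a difference of -0.50 between day 3 and day 0, turned to a difference of 0.17 without Pmp22, the gene that makes up most of the first sum, a setting chosen after seeing the data.

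No pairing by replicate number was seen: deviations of same-numbered libraries correlated at -0.146 to 0.107, and those of differently numbered libraries at -0.218 to 0.227. With 3 libraries a group this check cannot exclude pairing. With the replicate number as a block, 8, 8 and 9 of the 9 genes were called in the 3 comparisons, 12, 8 and 11 repair genes, and 6589, 3834 and 3640 of all genes.

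Genes with few counts at day 0, such as Egr2 with 169 and Dhh with 195 summed counts, limit the precision of their fold changes, and low repair genes such as Artn and Pax3 more so.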
